A study of Mus musculus with 12 samples.

Results

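The genes Ucp1, Acot11, Cidea, Cox7a1, Cox8b, Ppargc1a, Dio2, Elovl3, Prdm16 and Otop1 form a panel of 10 genes that are commonly used to recognise heat-producing fat in the mouse. Of these, 8 were listed by name, whereas Ucp1 and Acot11 were chosen by their measured FPKM, for their fall from normal tissue to tumor, so for those 2 genes the values in normal tissue and tumor are a description and carry no test. All 10 had an entry of their own in each of the 12 samples, out of 23704 gene names in the normal and tumor samples and 23691 in the samples of injected mice.

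RNA-seq of poly-A RNA was available for 12 mammary samples of mice aged 12 weeks, in 4 groups of 3 replicates from 2 experiments. In the first experiment, Normal samples were mammary glands of untreated FVB wild type mice, and each replicate pooled the abdominal and inguinal glands of 3 mice, while Tumor samples were mammary tumors of untreated MMTV-PyVT mice, each from the thoracic gland of 1 mouse. In MMTV-PyVT mice, which were kept on the FVB background, the mouse mammary tumor virus promoter drives the polyoma virus middle T antigen. In the second experiment all samples were tumors of MMTV-PyVT mice that had been injected with C646, an inhibitor of the acetyltransferase p300, or with DMSO, the solvent, and the biggest tumor of each mouse was taken. The labels give a dose of 1 mg/kg for both injections. Between Normal and Tumor the transgene, the gland and the pooling of mice all differ, and what each contributes cannot be told apart. In the RNA extraction the oil layer at the top of the lysate was left behind. Levels are given as FPKM, a fragment count scaled for gene length and library size.

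Brown adipocytes burn fatty acids to make heat. Noradrenaline from sympathetic nerves acts on the beta 3 adrenergic receptor, cyclic AMP rises, lipid droplets release fatty acids, and these both fuel the mitochondria and open the uncoupling protein Ucp1, which lets protons return to the matrix without making ATP. The subcutaneous fat pads around the mouse mammary gland are mostly white fat but hold beige adipocytes, which use the same genes. The labelled tissues were checked against marker genes. The summed level of 20 white and general adipocyte genes was between 39322 and 49882 FPKM in Normal, between 601 and 4168 FPKM in Tumor, between 236 and 791 FPKM in DMSO and between 697 and 1401 FPKM in C646. The mammary epithelium genes Epcam, Krt8 and Krt18 were between 68.2 and 227 FPKM in Normal and between 502 and 1044 FPKM in Tumor. Of all 12 mammary epithelium genes listed, 9 were higher and 1 lower in Tumor (limma adjusted p under 0.05). Over all genes tested, 28.8% were higher and 31.7% lower.

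Thermogenic genes were lower in Tumor than in Normal for every member of the panel: no Tumor sample reached the lowest Normal sample for any of the 10 genes. Among the 13031 genes tested, 35.8% had this pattern, and 31.7% were lower in Tumor at an adjusted p under 0.05 (limma, Benjamini-Hochberg over all genes tested), against 28.8% higher. Of the 8 genes listed by name, all 8 were past that threshold. A gene was tested if 3 or more of the 6 samples reached 1 FPKM, which all 10 genes met through the Normal samples alone, and Cidea, Cox7a1 and Cox8b were the members that also reached 1 FPKM in all 3 tumors, so the number called is not evidence for the panel. Differences are given on the scale log2(FPKM + 0.03125). In bulk tissue, fewer brown or beige adipocytes and less RNA of these genes per cell cannot be told apart.

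**Figure D1:**
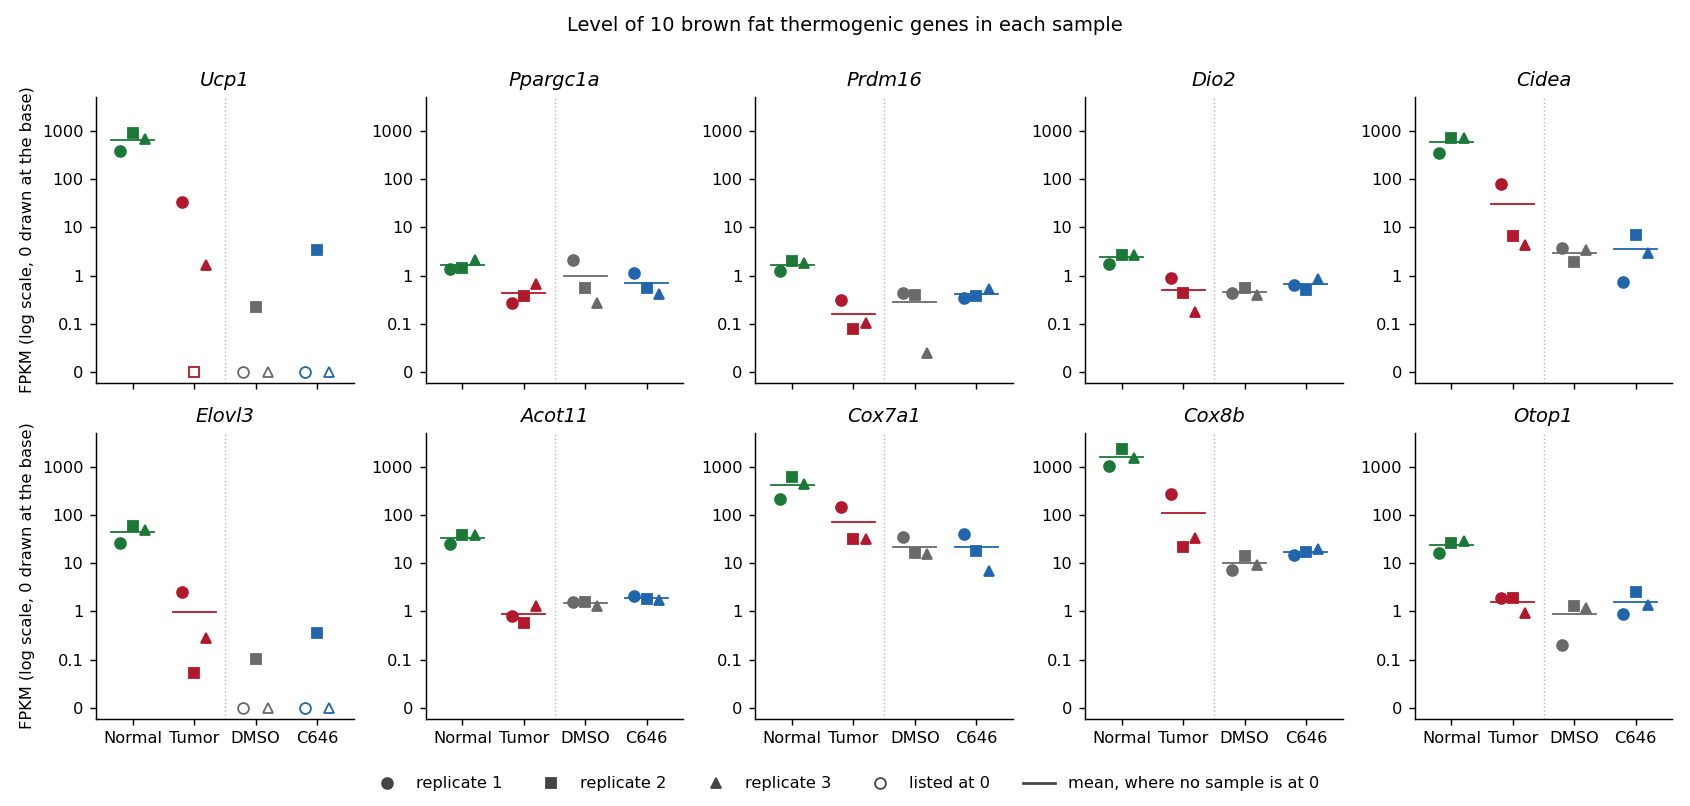
FPKM of each of the 10 genes (log scale, with samples listed at 0 drawn as open symbols at the base) in the 3 replicates of Normal, Tumor, DMSO and C646; lines are group means where no sample is at 0, and the dotted line parts the experiments. Every Tumor symbol lies below every Normal symbol of the same gene, and Ucp1 and Elovl3 are listed at 0 in DMSO replicates 1 and 3 and C646 replicates 1 and 3.

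Ucp1, the proton channel of brown fat mitochondria (chr8:83290352-83298452, plus strand, GRCm38), was at 386, 901 and 663 FPKM in Normal replicates 1, 2 and 3. In Tumor replicates 1, 2 and 3 it was at 33.1 FPKM, listed at 0, and at 1.64 FPKM. The groups did not overlap, and the highest tumor was at 5.09% of the Normal mean. The log2 difference of -9.00 rests on the tumor listed at 0 and became -7.10 with a pseudocount of 1, and it was the largest of the panel with either. It was -6.37 without Tumor replicate 2, the tumor listed at 0, and -11.39 without Tumor replicate 1. In the injected mice Ucp1 was listed at 0 in DMSO replicates 1 and 3 and in C646 replicates 1 and 3. DMSO replicate 2 held 0.220 FPKM and C646 replicate 2 held 3.38 FPKM. Wap in the first experiment and Slc22a27 in the second were also listed at 0 in 1 sample, with a median of at least 20 FPKM over the 6 samples of both groups. These genes were chosen for that pattern after their values were seen. Whether an exact 0 in these files is a failed estimate or absent RNA was not tested.

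The 300 bases around the start of Ucp1, from 250 bases before to 50 after, are shown because cyclic AMP signalling acts on this gene, with the same window of Dio2, another cyclic AMP responsive gene, and of Cox8b, the most abundant member. Sequences are from RefSeq on GRCm38.p6 and read 5′ to 3′ on the strand of the gene, and capitals mark matches to the cAMP response element TGACGTCA or its core TGACG on either strand. Ucp1 is at chr8:83290098-83290397 (plus strand), Dio2 at chr12:90738989-90739288 (minus strand) and Cox8b at chr7:140900397-140900696 (minus strand).
Ucp1: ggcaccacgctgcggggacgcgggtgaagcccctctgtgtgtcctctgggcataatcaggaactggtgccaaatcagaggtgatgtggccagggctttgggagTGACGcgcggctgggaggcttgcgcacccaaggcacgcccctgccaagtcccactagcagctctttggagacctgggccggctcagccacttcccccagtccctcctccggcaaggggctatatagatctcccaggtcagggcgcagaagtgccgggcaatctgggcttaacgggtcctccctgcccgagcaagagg
Dio2: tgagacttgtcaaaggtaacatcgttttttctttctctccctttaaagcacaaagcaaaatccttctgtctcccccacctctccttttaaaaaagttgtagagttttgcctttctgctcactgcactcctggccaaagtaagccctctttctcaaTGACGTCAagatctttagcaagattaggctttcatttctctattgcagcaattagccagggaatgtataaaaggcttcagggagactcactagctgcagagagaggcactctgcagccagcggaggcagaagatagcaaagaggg
Cox8b: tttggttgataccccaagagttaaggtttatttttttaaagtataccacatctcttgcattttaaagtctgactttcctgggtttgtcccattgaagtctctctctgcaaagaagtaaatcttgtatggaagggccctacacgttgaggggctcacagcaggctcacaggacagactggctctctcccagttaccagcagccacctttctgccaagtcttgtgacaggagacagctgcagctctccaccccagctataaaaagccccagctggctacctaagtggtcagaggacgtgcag
The full element TGACGTCA stood in the Dio2 window, starting 95 bases before the start site, and the core TGACG stood 147 bases before the start site of Ucp1. Cox8b held neither. RefSeq gave 9 windows for 8 members, with 2 for Acot11, and none was given for Cidea and Elovl3. The core, which is part of the full element, was found in the windows of Dio2, Ppargc1a and Ucp1 and in 20.8% of all 32851 windows, and the full element in 1.79% of them. The PPAR response element, a direct repeat with 1 base between, was searched on both strands and found in 0 member windows and in 0.0396% of all windows. A match describes letters in this window and not a site in use.

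The paralogs of Ucp1 went separate ways. Ucp2, an uncoupling protein found in many tissues and in immune cells, was at 492, 457 and 334 FPKM in Normal and 1500, 1177 and 799 FPKM in Tumor, a log2 difference of 1.41 ± 0.28 (SE, limma adjusted p = 0.00373). Ucp3, the muscle uncoupling protein that brown fat also makes, was at 20.3, 30.9 and 28.8 FPKM in Normal and 2.24, 6.85 and 0.759 FPKM in Tumor, a log2 difference of -3.51 (limma adjusted p = 0.00381). The lowest Ucp2 tumor thus lay above the highest Normal sample, while Ucp1 and Ucp3 had no tumor above the lowest Normal sample.

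The transcription regulators of the panel were low in level even in Normal tissue. Ppargc1a, the coactivator PGC-1 alpha that drives mitochondrial biogenesis (chr5:51454250-51567726, minus strand), was at 1.35, 1.42 and 2.09 FPKM in Normal and at 0.274, 0.377 and 0.679 FPKM in Tumor. Its log2 difference of -1.86 ± 0.42 (SE, limma adjusted p = 0.00658) was the smallest of the panel. After quantile normalization it was -1.13 with a limma adjusted p of 0.0521, which did not pass the threshold. Prdm16, a zinc finger protein that turns precursor cells towards the brown fate (chr4:154316125-154636873, minus strand), was at 1.25, 1.96 and 1.80 FPKM in Normal and 0.308, 0.0798 and 0.102 FPKM in Tumor. The log2 difference was -3.29 ± 0.54 (SE, limma adjusted p = 0.00156). Exons of Prdm16 overlap those of B230104I21Rik, and the library kit does not keep the strand, so reads of the pair cannot be told apart.

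Related regulators moved in both directions. Ppargc1b, the closest relative of Ppargc1a, fell from 1.99, 2.64 and 2.84 FPKM to 0.314, 0.750 and 0.333 FPKM (log2 difference -2.43, limma adjusted p = 0.00161). Pprc1, the third member of that family, rose from 11.5, 11.7 and 8.98 FPKM to 18.6, 18.9 and 20.6 FPKM (log2 difference 0.86, limma adjusted p = 0.00227). Mecom, the paralog of Prdm16, did not pass the filter on low values and was at 1.87 FPKM at most.

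Dio2, the deiodinase that makes active thyroid hormone inside brown fat cells (chr12:90724552-90738438, minus strand, starting downstream of the RefSeq start in the window shown), was at 1.70, 2.72 and 2.71 FPKM in Normal. In Tumor it was at 0.904, 0.433 and 0.175 FPKM, with a log2 difference of -2.40 ± 0.56 (SE, limma adjusted p = 0.00804). Tumor replicate 1 kept 38.0% of the Normal mean and Tumor replicate 3 kept 7.36%. The other deiodinases were lower still in Normal: Dio1 was at 0.0986 FPKM at most in Normal, and Dio3, which inactivates the hormone, was at 0, 0.0707 and 0.0485 FPKM in Normal and 0.896, 0.534 and 0.413 FPKM in Tumor. Dio3 did not pass the filter and was not tested, although its groups did not overlap. Reads of Dio2 cannot be told apart from those of the overlapping Gm26512.

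Lipid genes of the panel were abundant in Normal. Cidea, a lipid droplet protein that marks brown and beige adipocytes, was at 351, 710 and 705 FPKM in Normal and at 80.2, 6.49 and 4.35 FPKM in Tumor. The log2 difference was -5.41 ± 1.01 (SE, limma adjusted p = 0.00292), and the mean of Normal was 19.4-fold that of Tumor. Elovl3, which elongates very long chain fatty acids when brown fat is recruited (chr19:46131897-46135694, plus strand), was at 26.4, 57.7 and 49.4 FPKM in Normal and at 2.58, 0.0527 and 0.281 FPKM in Tumor. Its log2 difference of -6.69 ± 1.12 (SE, limma adjusted p = 0.00171) was the largest of the 8 genes listed by name at this pseudocount, but with a pseudocount of 1 it was -4.68 and that of Cidea, at -5.24, was larger. Pitx3, which overlaps Elovl3, was at 0.278 FPKM at most. Acot11, an acyl-CoA thioesterase that is induced by cold in brown fat (chr4:106744555-106804998, minus strand), was at 24.7, 38.8 and 38.0 FPKM in Normal and at 0.820, 0.582 and 1.32 FPKM in Tumor, a log2 difference of -5.22. The 3 tumors were close together, at 2.42%, 1.72% and 3.89% of the Normal mean. Fam151a overlaps Acot11 and was between 0.0993 and 6.81 FPKM in these 6 samples.

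Within these lipid families the paralogs split. Cidec, the Cide protein of large white fat droplets, was at 1022, 1213 and 1066 FPKM in Normal and 76.1, 0.952 and 3.13 FPKM in Tumor (log2 difference -7.47, limma adjusted p = 0.00291), a level above that of Cidea in Normal. Of the fatty acid elongases, Elovl6 and Elovl5 fell, with log2 differences of -3.90 and -1.03, while Elovl1 rose by 1.28 and Elovl7 by 2.87 on the same scale, each with a limma adjusted p of at most 0.00161. Elovl2 and Elovl4 did not pass the filter. Acot8, a peroxisomal thioesterase, was 0.61 higher on the log2 scale in Tumor (limma adjusted p = 0.0354), and Acot7 and Acot9 did not pass the threshold, with log2 differences of 0.26 and 0.26. Acot7 passed at 0.52 without Tumor replicate 2 (limma adjusted p = 0.0445) and was at 0.074 without Tumor replicate 3. Over the 15 paralogs tested, 5 were higher and 5 lower, near the shares of 28.8% and 31.7% over all genes tested, and the median log2 difference was 0.038, against -0.016 over all genes.

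Cox7a1 and Cox8b encode the isoforms of 2 subunits of cytochrome c oxidase that heart, skeletal muscle and brown fat use, where most other cells use Cox7a2 and Cox8a. Cox7a1 (chr7:30184144-30186078, plus strand) was at 217, 618 and 434 FPKM in Normal and at 148, 31.3 and 32.5 FPKM in Tumor, a log2 difference of -2.86 ± 0.65 (SE, limma adjusted p = 0.00703). Cox8b (chr7:140898945-140900446, minus strand) was at 1036, 2304 and 1521 FPKM in Normal and at 274, 21.4 and 33.1 FPKM in Tumor, a log2 difference of -4.73 ± 0.89 (SE, limma adjusted p = 0.00295). Cox8b was the most abundant of the 10 genes in each Normal sample. For both genes Tumor replicate 1 was the high tumor.

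The general isoforms were read beside them. Cox7a2 was at 302, 392 and 398 FPKM in Normal and 423, 350 and 345 FPKM in Tumor, with a log2 difference of 0.038 (limma adjusted p = 0.863) whose sign turned to -0.077 after quantile normalization. Cox8a was at 1528, 1913 and 1806 FPKM in Normal and 1529, 1074 and 867 FPKM in Tumor, a log2 difference of -0.63 that did not pass (limma adjusted p = 0.0711), but that passed at -1.10 after quantile normalization and at -0.85 without Tumor replicate 1. Since FPKM is per length, the share of an isoform can be set within a sample. Cox7a1 made up 41.7%, 61.2% and 52.2% of Cox7a1 and Cox7a2 together in Normal, a mean of 51.7% ± 9.72 (SD, n = 3), and 25.9%, 8.20% and 8.61% in Tumor, a mean of 14.2% ± 10.1 (SD, n = 3). Cox8b made up 46.9% ± 7.19 (SD, n = 3) of Cox8a and Cox8b in Normal and 6.93% ± 7.19 (SD, n = 3) in Tumor. Neither share overlapped between the groups, and both had p = 0.1 in a two-sided exact permutation test, the smallest p that 3 samples against 3 allow. Skeletal muscle also makes these isoforms, and 20 skeletal muscle genes summed to between 21.1 and 142 FPKM in Normal and between 2571 and 7778 FPKM in Tumor, highest in Tumor replicate 1. The part of muscle RNA in the Cox7a1 and Cox8b left in Tumor was not tested.

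**Figure D2:**
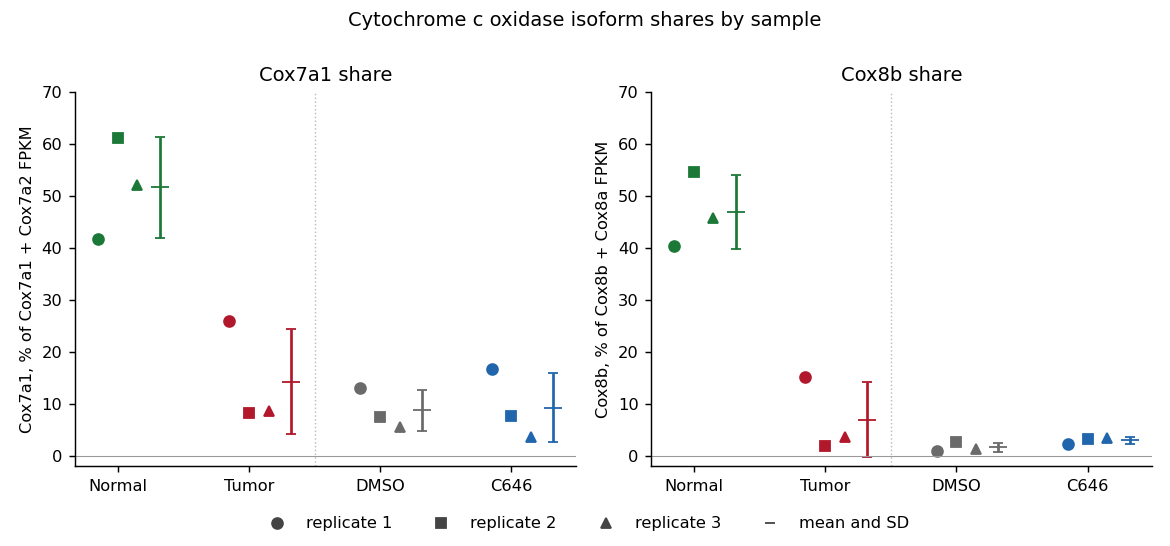
Share of Cox7a1 in the summed FPKM of Cox7a1 and Cox7a2 (left) and of Cox8b in that of Cox8b and Cox8a (right), in percent, for each replicate with the group mean and SD. Normal samples lie between 40.4% and 61.2%, and no tumor is above 25.9%.

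Otop1, a proton channel that is enriched in brown fat (chr5:38275972-38304217, plus strand), was at 16.1, 26.2 and 28.2 FPKM in Normal and at 1.94, 1.90 and 0.930 FPKM in Tumor. The log2 difference of -3.89 ± 0.34 (SE, limma adjusted p = 0.000105) had the smallest standard error of the 8 tested members. Otop2 and Otop3, its paralogs, were listed at 0 in all Normal samples, and Otop3 was at 0.0616, 0.0791 and 2.72 FPKM in Tumor.

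Per length, the members spanned a wide range in Normal. Their mean levels ran from Cox8b at 1621 FPKM over Ucp1 at 649.7, Cidea at 589 and Cox7a1 at 423 FPKM to Elovl3 at 44.5, Acot11 at 33.8 and Otop1 at 23.5 FPKM, and then Dio2 at 2.38, Prdm16 at 1.67 and Ppargc1a at 1.62 FPKM. Neighbours in this order overlapped in their samples, except that each Normal sample of Cox8b was above each of Ucp1, each of Cox7a1 above each of Elovl3, and each of Otop1 above each of Dio2. Differences of the low genes depend on the pseudocount: with a pseudocount of 1 they were -0.86 for Ppargc1a, -1.20 for Prdm16 and -1.18 for Dio2. Each was still past the threshold, but as these genes met the filter through Normal alone, that is a description.

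**Figure D3:**
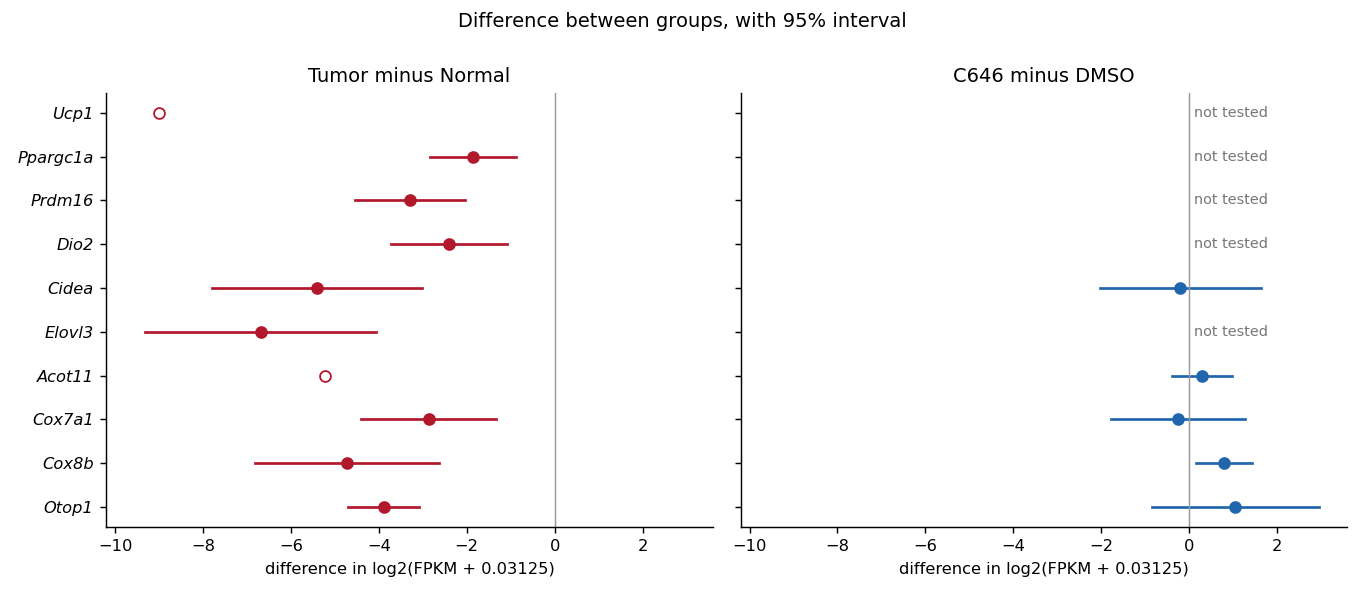
Difference in log2(FPKM + 0.03125) for each gene between Tumor and Normal (left) and between C646 and DMSO (right), with the 95% interval from limma; open circles are Ucp1 and Acot11, which carry no test between Tumor and Normal. All intervals on the left lie below 0, and on the right the interval of Cox8b, from 0.16 to 1.42, lies above 0 before any adjustment.

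A single sample in each group of the first experiment stood apart for these genes. Tumor replicate 1 was the highest tumor for 8 of the 10 members, the exceptions being Acot11 and Ppargc1a, while over all genes tested it was the highest for 44.9%. It held 13.6% of the Normal mean of Cidea, 16.9% of Cox8b and 35.0% of Cox7a1, where the other tumors held at most 1.10%, 2.04% and 7.69%. The same tumor was the highest for 18 of the 20 white and general adipocyte genes, with 4.23% of the Normal mean of Adipoq, the adipocyte hormone, against 0.114% and 0.233%. The median share of the Normal mean left in Tumor replicates 1, 2 and 3 was 15.2%, 3.25% and 3.92% for the panel, and 5.18%, 0.493% and 0.571% for the adipocyte genes. Lep, like Ucp1, was listed at 0 in Tumor replicate 2. Judged from the steps of low FPKM values, replicate 3 was 1.53 times as deep as replicate 1.

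Without Tumor replicate 1 the log2 difference was -6.71 for Cidea, -8.03 for Elovl3, -5.85 for Cox8b, -3.60 for Cox7a1, -3.78 for Prdm16, -2.93 for Dio2, -4.07 for Otop1 and -1.59 for Ppargc1a. All 8 remained past the threshold, with a limma adjusted p of at most 0.0130. As all 8 met the filter through Normal alone, this count, too, is a description. Normal replicate 1 was the lowest Normal sample for all 10 members and for 18 of 20 adipocyte genes, while over all genes tested it was the lowest for 36%. Its level relative to the mean of the other Normal samples had a median of 0.568 over the panel, from 0.412 for Cox7a1 to 0.773 for Ppargc1a, and of 0.820 over the adipocyte genes. Without it, the differences of the 8 genes lay between -1.97 for Ppargc1a and -7.03 for Elovl3. The 12 mammary epithelium genes summed to 1182, 571 and 708 FPKM in Normal replicates 1, 2 and 3. The 20 skeletal muscle genes summed to 142, 28.5 and 21.1 FPKM, so both sums were highest in replicate 1.

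**Figure D4:**
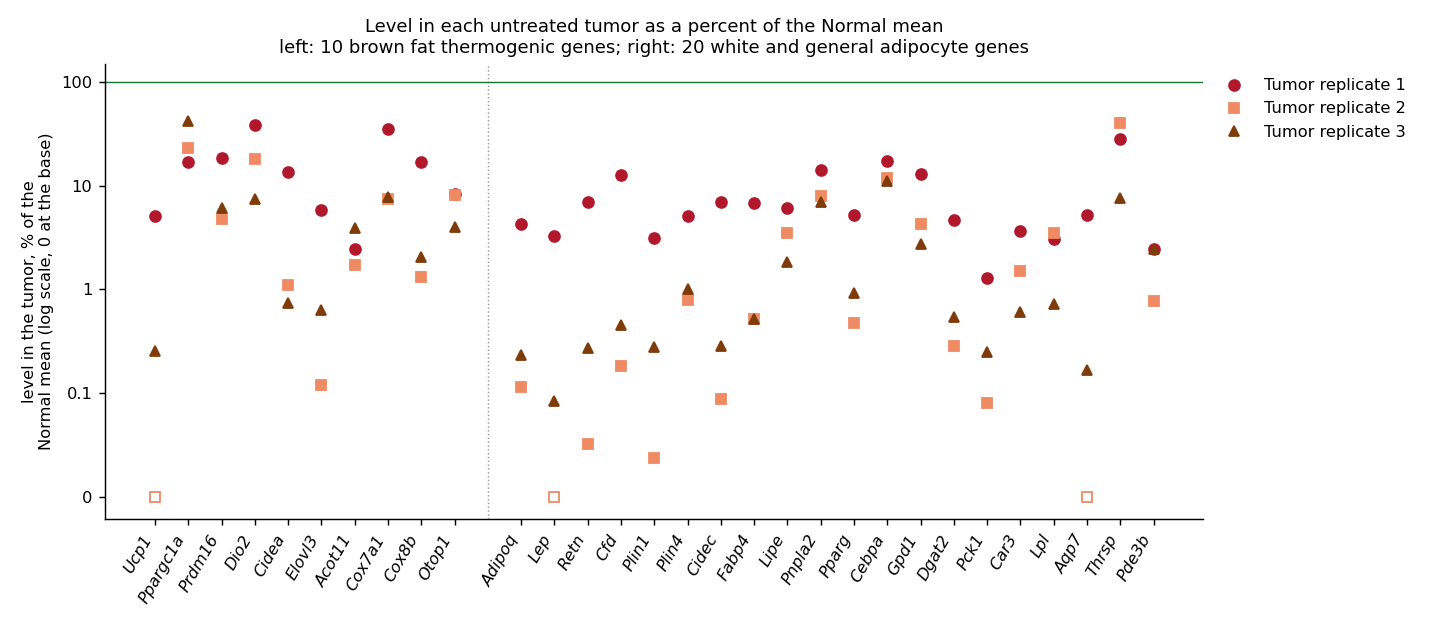
Level of each gene in each untreated tumor as a percent of its Normal mean (log scale, samples at 0 drawn open at the base), for the 10 thermogenic genes on the left and 20 white and general adipocyte genes on the right; the line marks 100%. Tumor replicate 1 lies above the other tumors for 8 of 10 and 18 of 20 genes, and no tumor exceeds 41.9% for a thermogenic gene.

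The wider thermogenic pathway was examined with a list of 98 genes that shares no gene with the panel. The files held 95 of them under their own name, and 87 passed the filter. Of these, 59 were lower and 10 higher in Tumor (limma adjusted p under 0.05), 18 did not pass the threshold, where 31.7% of all genes tested were lower and 28.8% higher. The median log2 difference was -2.11, against -3.59 for the 8 members listed by name, -4.31 with Ucp1 and Acot11 and -0.016 for all genes tested. Some pathway genes met the filter through 1 group alone, such as Klb and Ppara through Normal and Ckmt2 through Tumor, so these counts, too, are a description. Ppargc1b counts here as well as among the paralogs. Of the pathway genes, 7 are also on the adipocyte list, on which 20 of 20 genes were lower with a median of -6.26.

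On the input side, 10 of 15 genes tested were lower, where 31.7% of all genes were. The largest fitted falls were those of Adrb3, the beta 3 adrenergic receptor (from 102, 119 and 106 FPKM to 5.72, 0.191 and 0.679 FPKM, log2 difference -6.81, limma adjusted p = 0.0011), and of Klb, the co-receptor of the hormone FGF21 (log2 difference -5.92, and -3.10 with a pseudocount of 1). Bmpr1a, a BMP receptor, rose by 0.60 on the log2 scale. Bmpr1a, Gnas, Zic1 and the other genes given as exceptions for their role were picked after their values were seen. Gnas, the G protein subunit that couples the receptor to cyclic AMP, had a log2 difference of -0.47 and did not pass (limma adjusted p = 0.0667).

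Of the transcription genes, 9 of 16 tested were lower, beside the same 31.7% of all genes. Pparg, the master regulator of fat cells, and Ppara, which drives fatty acid use, fell, with log2 differences of -6.18 and -6.17. With a pseudocount of 1 these were -5.07 and -3.06, and Ppara was at 0.102 FPKM at most in Tumor. Cebpb rose by 2.39, from 101, 147 and 113 FPKM to 740, 571 and 576 FPKM, and was the only gene of this role that was higher. Zic1, a marker of classical brown rather than beige fat, was listed at 0 in all 3 Normal samples. Lhx8, one of the other brown or beige markers, was at 0.612, 1.28 and 0.891 FPKM in Normal and did not pass the filter. Zic1 and Lhx8 were picked after their values were seen, and whether Normal held classical brown fat was not tested.

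Lipid supply and lipid use were also lower. Of the lipid supply and lipolysis genes, 14 of 19 fell (31.7% of all genes), led by Plin1, the droplet coat protein (log2 difference -8.38), and Cd36, the fatty acid uptake receptor (log2 difference -6.97), and 1 rose, Abhd5, the lipase coactivator, by 0.92. All 15 fatty acid oxidation genes tested fell, by a median of 2.30, with Pdk4 at -5.08 and Hadhb, the beta subunit of the trifunctional protein, at -3.37.

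Of the genes of heat production without Ucp1, 6 of 11 tested were higher and 3 lower in Tumor, where 28.8% of all genes were higher and 31.7% lower. By the fitted difference, the leading ones were Atp2a1, the calcium pump of fast muscle fibres (from 5.44, 0.345 and 0.531 FPKM to 203, 87.6 and 123 FPKM, log2 difference 6.95), and Ckmt2, the mitochondrial creatine kinase of muscle (log2 difference 6.51). Ckmt2 was listed at 0 in Normal replicates 2 and 3, and its difference was 2.74 with a pseudocount of 1. Both are known foremost as muscle genes, and on the skeletal muscle list, which holds Atp2a1, 19 of 19 genes tested were higher in Tumor with a median log2 difference of 6.40; the part of muscle RNA in these values was not tested. The other higher genes of this role were Ckmt1, Slc6a8, Alpl and Gatm, with log2 differences of 3.75, 1.91, 1.59 and 1.20. They are not on the skeletal muscle list. Gpd2, Pm20d1 and Gamt were the lower genes of this role. Of the other brown or beige adipocyte markers, 8 of 11 tested were lower (31.7% of all genes) and none higher, with Tbx1 at -4.88 (-2.43 with a pseudocount of 1) and Cited1, both used as beige markers, at -4.37.

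**Figure D5:**
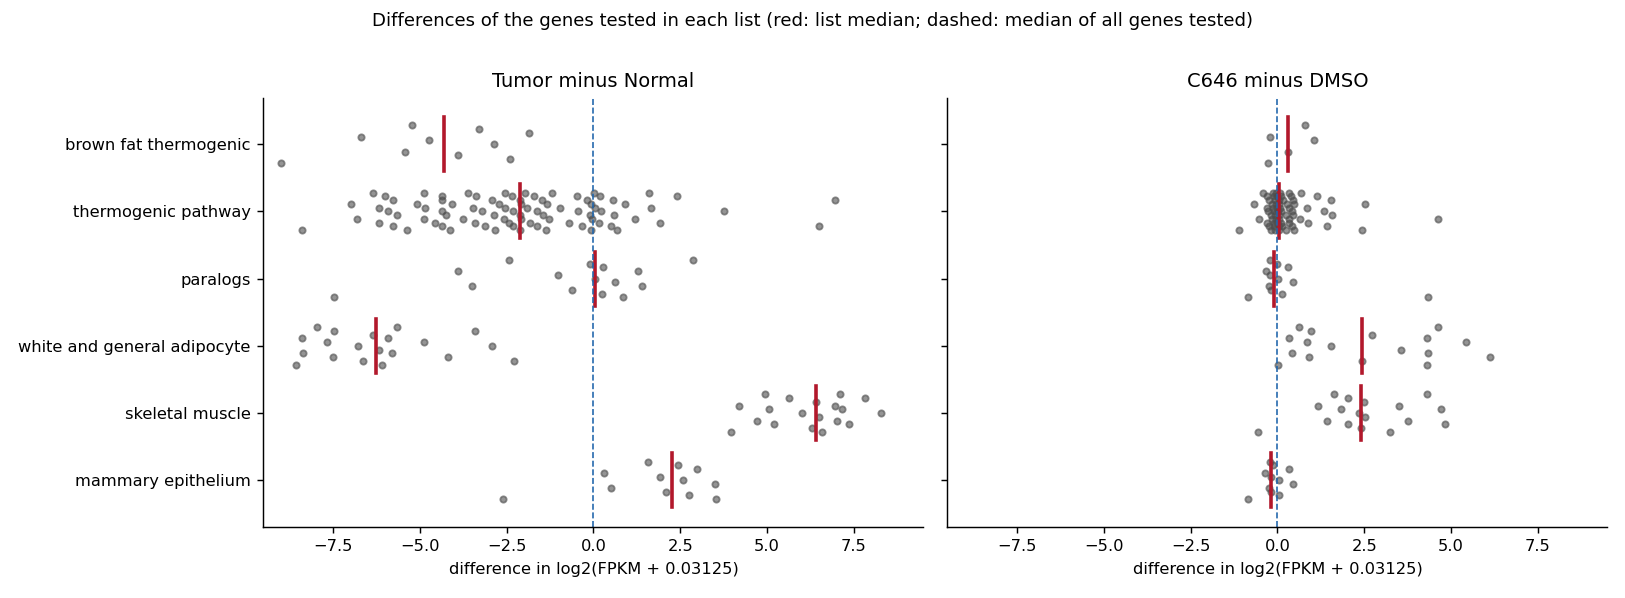
Differences in log2(FPKM + 0.03125) of the genes tested in 6 lists, between Tumor and Normal (left) and between C646 and DMSO (right); each point is a gene, red bars are list medians and the dashed line is the median of all genes tested. On the left the medians run from -6.26 for the adipocyte list and -4.31 for the thermogenic panel (-3.59 without Ucp1 and Acot11) to 6.40 for the skeletal muscle list, and on the right the panel median of 0.30 rests on 5 genes.

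The genes most like Ucp1 were found from the root mean square distance between log2 profiles over the 12 samples, each centred on its own mean, among 13232 genes; the samples come from separately made sets of files. Elovl3 was the nearest of all genes at 1.88, followed, outside the panel, by 4930524B15Rik at 2.25, Clstn3 at 2.26, Cyp2e1 at 2.31, Ces1f at 2.45 and Mrap at 2.54. Clstn3 was at 47.6, 80.1 and 54.4 FPKM in Normal and at 4.46, 0.208 and 0.439 FPKM in Tumor. Of the panel, Cidea was at 2.96 and Cox8b at 3.21, and Ppargc1a was the farthest at 5.52. The profiles were not scaled, so the size of the fall, smallest for Ppargc1a, and values listed at 0 enter the distance. Shared regulation was not tested.

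The second experiment addressed whether these genes differ between tumors of mice given C646 and of mice given DMSO. Levels were low in both groups, and 9 of the 10 members were lower in all 9 tumors of both experiments than in any Normal sample, the exception being Ppargc1a, at 2.14 FPKM in DMSO replicate 1. This pattern held for 22.5% of the 13232 genes compared and for 20 of 20 adipocyte genes. The 2 experiments were processed separately, so the levels stand side by side with no test.

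Between C646 and DMSO, 5 of the 10 members passed the filter, and none of them was past an adjusted p of 0.05 (limma). Over all 12083 genes tested, 0% were called in either direction, and 384 genes, Cox8b among them, had an unadjusted p under 0.05. Cox8b was at 7.13, 14.4 and 9.29 FPKM in DMSO and at 14.7, 17.2 and 19.7 FPKM in C646, a log2 difference of 0.79 with a 95% interval from 0.16 to 1.42 (limma adjusted p = 0.99). Acot11 was at 1.60, 1.59 and 1.33 FPKM in DMSO and at 2.101, 1.78 and 1.71 FPKM in C646, a log2 difference of 0.30 with an interval from -0.39 to 0.98. For these genes each C646 tumor was above each DMSO tumor, a pattern seen in 4.04% of genes tested, with the opposite in 4.52%.

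Otop1 was at 0.199, 1.28 and 1.20 FPKM in DMSO and at 0.881, 2.58 and 1.35 FPKM in C646, a log2 difference of 1.05 with an interval from -0.86 to 2.96, so changes from a fall to a rise of several fold remain within the error. The difference was 0.23 without DMSO replicate 1 and 0.47 with a pseudocount of 1. Cidea, at 3.65, 1.89 and 3.44 FPKM against 0.729, 7.04 and 2.95 FPKM, had a log2 difference of -0.20 with an interval from -2.04 to 1.63. Cox7a1, at 34.1, 16.2 and 15.3 FPKM against 41.0, 17.7 and 6.80 FPKM, had one of -0.26 with an interval from -1.78 to 1.27. Both groups overlapped for these 3 genes, and the signs for Cidea and Cox7a1 turned when single tumors were left out.

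The members that did not pass the filter were given by their levels alone. Ppargc1a was at 2.14, 0.539 and 0.265 FPKM in DMSO and 1.11, 0.561 and 0.407 FPKM in C646. Dio2 was at 0.433, 0.553 and 0.393 FPKM in DMSO and 0.642, 0.512 and 0.841 FPKM in C646. Prdm16 was at 0.433, 0.395 and 0.0254 FPKM in DMSO and 0.336, 0.376 and 0.530 FPKM in C646. Elovl3 followed Ucp1 in where it was listed at 0, with 0.102 FPKM in DMSO replicate 2 and 0.360 FPKM in C646 replicate 2. The groups overlapped for all of these genes. Over the whole panel the highest injected tumor varied. It was C646 replicate 2 for Ucp1, Elovl3, Cidea and Otop1, and C646 replicate 3 for Cox8b, Dio2 and Prdm16. For Cox7a1 and Acot11 it was C646 replicate 1, and for Ppargc1a DMSO replicate 1.

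The isoform shares overlapped between DMSO and C646. Cox7a1 made up 8.71% ± 3.90 (SD, n = 3) of its pair in DMSO and 9.28% ± 6.72 (SD, n = 3) in C646 (two-sided exact permutation test, p = 0.9), and Cox8b made up 1.59% ± 0.848 (SD, n = 3) and 2.95% ± 0.671 (SD, n = 3) of its pair (two-sided exact permutation test, p = 0.2). Cox8a itself was lower by 0.21 on the log2 scale in C646 and did not pass. Among the other paralogs, Ucp2 had a log2 difference of 0.30 and Cidec of 4.34, from 0, 2.38 and 0.514 FPKM to 1.92, 9.90 and 17.7 FPKM, neither past the threshold (limma adjusted p = 0.99). The difference of Cidec rests on the sample listed at 0 and was 2.29 with a pseudocount of 1 and 2.61 without DMSO replicate 1.

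Adipocyte and muscle genes were read beside these values. All 17 adipocyte genes tested had a difference above 0, with a median of 2.45, and none was past the threshold. Over all 12083 genes tested, 5665 had a difference above 0. Of the 17 adipocyte genes, 13 had an unadjusted limma p under 0.05, where 384 of all 12083 genes did. Of all 20 genes on the list, tested or not, 11 had each C646 tumor above each DMSO tumor, where 4.04% of all genes tested did. By comparison, the 69 pathway genes tested had a median of 0.053, and 9 of them had an unadjusted limma p under 0.05. The 18 lipid supply and lipolysis genes tested had a median of 0.54, with 8 under that p. This role includes genes that are also on the adipocyte list, such as Plin1 and Fabp4. The 14 fatty acid oxidation genes tested lay between -0.11 and 0.28. None of these was past the threshold, nor were the 12 paralogs tested. The summed level of the adipocyte list was 236, 618 and 791 FPKM in DMSO replicates 1, 2 and 3. In C646 replicates 1, 2 and 3 it was 697, 1139 and 1401 FPKM, so the sums of the groups overlapped. DMSO replicate 1 was listed at 0 for 6 of the 20 genes, which enters the log2 differences. The C646 tumor with the highest sum, replicate 3, was listed at 0 for Ucp1. Skeletal muscle genes summed to between 13.5 and 616 FPKM in DMSO and between 13.9 and 599 FPKM in C646, with a median difference of 2.40 over the 17 tested, none past the threshold. The part of adipocyte and muscle RNA in the differences of Cox8b, Otop1 and Acot11 was not tested.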

How the data were processed

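Poly-A RNA of 12 mouse mammary samples was sequenced with a library kit that does not keep the strand. The authors mapped the reads to mm10 with TopHat2 2.1.1 and computed FPKM per gene with Cufflinks 2.2.1, per the submitters' processing notes, and deposited these FPKM in a separate file for each sample. Read totals are not given in the sources used here, so precision comes from the spread of the 3 replicates. Steps in low FPKM values gave a relative depth for 15 of 30 pairs of samples within an experiment, with ratios up to 1.53. Groups and replicate numbers came from the sample titles, and pooling and gland position from the study's methods.

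In the normal and tumor files 1837 of 26220 entries (7.01%) had no gene name and were dropped. FPKM was summed over entries sharing a name (544 repeated names in these files and 473 in those of the injected mice). Genes found only in an entry that joins several names were left out, and Gyk was read from the entry of its RefSeq synonym where needed. Each experiment was tested on its own by a moderated linear model (limma 3.58.1 under R 4.3.3, lmFit and eBayes, mean-variance trend on). The model took log2(FPKM + 0.03125) of every gene that reached 1 FPKM in 3 or more of its 6 samples. Benjamini-Hochberg adjustment ran over all genes tested, and the threshold was 0.05. The tumor and normal fit tested 13031 genes and the other 12083. Fold changes on this scale understate the change of low genes. Intervals are 95% intervals from the same fit. Isoform shares were compared with a two-sided exact permutation test. The limma step was tested on simulated data with known changes.

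The members and lists were chosen with earlier results of these data known. Genes named were taken from the 10 members, their 25 paralogs, in each pathway role the 2 genes with the largest difference among those past the threshold without overlap, the first 3 genes of each cell type list, and the 5 genes most like Ucp1; exceptions are said to be picked after their values were seen. The values of 1 listed gene are not reported here. The lists hold 98 thermogenic pathway genes in 6 roles, 20 white and general adipocyte genes, 20 skeletal muscle genes and 12 mammary epithelium genes. Of the last, 9 were higher and 1 lower in Tumor, where 28.8% of all genes tested were higher and 31.7% lower. Between C646 and DMSO 0 of 11 were called, and 0% of all genes tested. Positions are from GENCODE vM21 on GRCm38, the build of mm10, and start site windows from RefSeq on GRCm38.p6. Alternatives were pseudocounts of 1 and 0.25, no filter, scaling by the median ratio, quantile normalization, the replicate number as a block, and leaving out each replicate. Other steps used Python 3.11.15 (pandas 2.3.3, numpy 2.4.6, matplotlib 3.10.9, scipy 1.17.1).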

Additional observations from a re-analysis of the deposited data

How the results depend on the processing

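Under the 12 alternatives to the Tumor against Normal fit, all 8 genes listed by name stayed lower and past the threshold, except Ppargc1a after quantile normalization (log2 difference -1.13, limma adjusted p = 0.0521). These genes met the main filter through Normal alone, so the number called is a description here as well. The values of Acot11 and Ucp1, given without a test, became -4.18 and -7.10 with a pseudocount of 1. The counts of pathway genes lay between 55 and 60 lower and between 8 and 10 higher. Quantile normalization moved the median log2 difference of all genes between Tumor and Normal from -0.016 to 0.10. It turned the sign of Cox7a2 between Tumor and Normal to -0.077 and of Elovl1 between C646 and DMSO to 0.093, neither past the threshold. Leaving out single replicates gave between -0.090 and 0.11 for Cox7a2 in the first comparison and, between C646 and DMSO, between -0.95 and 0.66 for Cidea, -0.89 and 0.40 for Cox7a1, -0.0016 and 0.49 for Ucp2, -0.046 and 0.0099 for Elovl1, and -3.14 and 3.42 percentage points for the Cox7a1 share. Over all genes, 0 were lower in C646, against up to 11 without DMSO replicate 2, and 0 members were called in any setting. Same-numbered samples deviated together with correlations of -0.038, -0.098 and 0.010 in the first experiment and 0.175, 0.070 and 0.109 in the second, so the numbers were not taken to pair them. With the replicate number as a block, 8 of 8 members stayed lower, 3827 genes were lower and 3439 higher in Tumor, against 4128 and 3758 without it, and 0 were called between C646 and DMSO; in the exact sign-flip test over 3 pairs the isoform shares had p = 0.25 at the least, the smallest it allows. The causes of these shifts were not tested. The 5 members under the filter in the injected tumors entered only the fit without a filter, which tested 17873 genes and called 0.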
